A study of Homo sapiens with 8 samples.

Results

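The HOX cluster genes were taken as every protein-coding row of the deposited count table whose symbol is HOXA, HOXB, HOXC or HOXD followed by digits alone, which gave 39 of 80311 rows. The set was chosen by symbol but with results of these data known: it was proposed because the HOXD10 counts of the siNC libraries differed strongly between the cell lines, so that difference is described and not tested. RNA was measured in 8 libraries of U2OS, an established human osteosarcoma line, in a study of the protein MePCE and DNA double-strand breaks. The groups, 4 in all with 2 libraries each, crossed the line with the siRNA. U2OS-Flp-In-TREx cells (called Flp-In) were given either a control siRNA, siNC, or siMePCE, which targets the mRNA of MEPCE, the methylase of the 5′ cap of 7SK RNA. U2OS AsiSI-ER cells of the AiD-DiVA type (called AsiSI) had the same siRNAs. AsiSI is a restriction enzyme that, fused to an oestrogen receptor domain, enters the nucleus and cuts DNA when 4-hydroxytamoxifen (4-OHT) is added. All groups were transfected at 0 h and again at 48 h, with lysis at 96 h. Both AsiSI groups were also under 300 nM 4-OHT for the last 4 h, from 92 h. For Flp-In the labels state no 4-OHT, and each line grew under its own selection drugs, so line, 4-OHT and selection cannot be told apart. The labels do not call replicates separate cultures, and the p-values hence cover the spread of these libraries, which may be technical.

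HOX genes encode homeodomain transcription factors that give cells their position along the body axis. They lie in clusters in which the gene order follows the order of their domains along the head-to-tail axis, and many adult cells keep a part of this pattern. Trithorax and MLL complexes are known to hold HOX genes active, Polycomb complexes hold them silent, retinoic acid induces genes at the low-numbered end, and PBX and MEIS proteins of the TALE family bind DNA together with HOX proteins.

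Per the hg19 coordinates of the deposited rows, the HOXA cluster (11 members) lay on chromosome 7, on the minus strand. HOXB (10 members) spanned chromosome 17, 46605888 to 46806112, on the minus strand. HOXC (9 members) spanned chromosome 12, 54332615 to 54449814, and HOXD (9 members) chromosome 2, 176957449 to 177055635, both on the plus strand. HOXD10 (ENSG00000128710) lay at 176973518 to 176984665 and HOXD11 (ENSG00000128713) at 176968944 to 176974482. HOXC4 (ENSG00000198353) lay at 54410715 to 54449814. These rows cover introns, exons and UTRs alike.

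Promoter sequences from RefSeq (GRCh38.p14) were matched by symbol for 20 of the 39 members, at 26 distinct starts. Of these, 3 are shown. HOXD10 and its neighbour HOXD11 were nearly silent in AsiSI. HOXC4 was the only tested member to pass the test of a different siMePCE effect in the lines, and its call rested on single libraries, as given below. Each run gives the 250 bases before the start, and capitals mark CG dinucleotides, the sites of DNA methylation.
HOXD10 (chr2:176116528-176116777, plus strand): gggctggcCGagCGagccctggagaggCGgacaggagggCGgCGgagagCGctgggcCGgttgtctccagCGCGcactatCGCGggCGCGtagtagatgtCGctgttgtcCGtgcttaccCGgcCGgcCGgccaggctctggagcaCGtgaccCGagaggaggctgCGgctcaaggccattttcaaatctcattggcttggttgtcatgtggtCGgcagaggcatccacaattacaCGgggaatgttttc
HOXD11 (chr2:176107030-176107279, plus strand): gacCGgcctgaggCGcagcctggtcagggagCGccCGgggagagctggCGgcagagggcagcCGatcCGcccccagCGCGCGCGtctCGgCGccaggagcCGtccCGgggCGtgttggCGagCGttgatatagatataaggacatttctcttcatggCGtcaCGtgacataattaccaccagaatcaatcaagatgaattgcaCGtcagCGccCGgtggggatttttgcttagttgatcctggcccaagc
HOXC4 (chr12:54016638-54016887, plus strand): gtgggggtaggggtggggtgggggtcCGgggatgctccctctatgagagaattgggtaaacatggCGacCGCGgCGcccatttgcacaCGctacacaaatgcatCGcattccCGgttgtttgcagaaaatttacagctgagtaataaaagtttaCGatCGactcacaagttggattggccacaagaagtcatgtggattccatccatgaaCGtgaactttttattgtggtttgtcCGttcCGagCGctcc
The HOXD10 and HOXD11 runs each held 23 CG, and the HOXC4 run, which is also the listed HOXC5 promoter, held 14. Over windows of 300 bases (the 250 before and 50 after the start), the HOX starts had a median of 22.5 CG, with a range of 0 to 44, against 14 for all 35116 RefSeq promoters. The HOXD11 window held more CG than 71.8% of all promoters, that of HOXD10 more than 64.2% and that of HOXC4 more than 51.1%. The motif TATAAA, searched on both strands, occurred in 5 of the 26 HOX starts (19.2%), among them HOXA9, HOXA10 and HOXD13, and in 11.5% of all promoters; none of the 3 windows shown held it. HOXA3 had 7 listed starts, which spread over much of its long row.

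**Figure D1:**
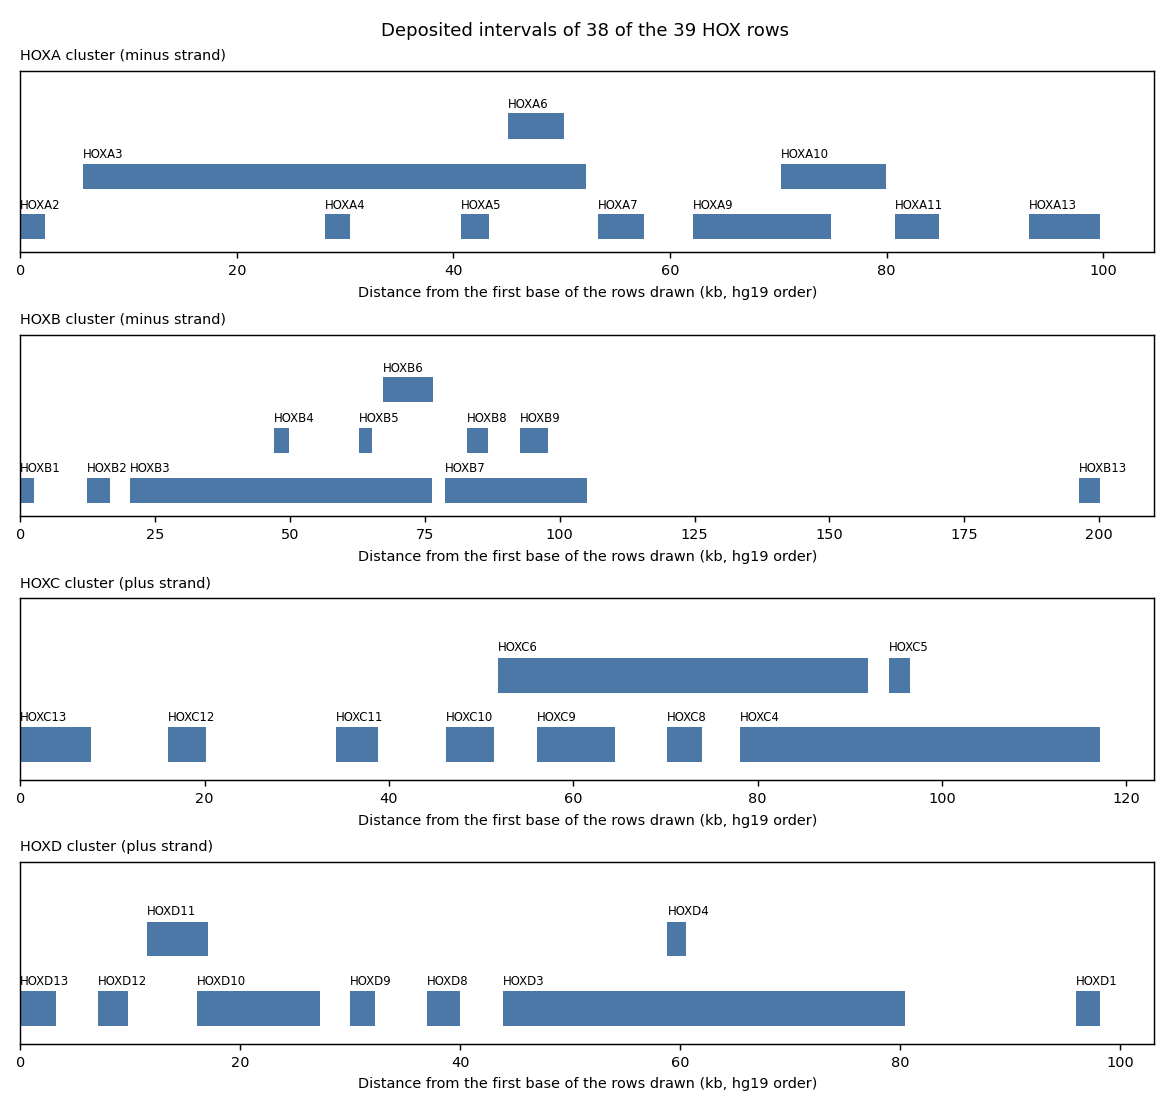
Deposited intervals of 38 of the 39 HOX rows by cluster, drawn to scale along the hg19 order as distance in kb from the first base of the rows drawn; rows that overlap are stacked. HOXA3, HOXB3, HOXB7, HOXC4, HOXC6 and HOXD3 are long rows that wholly hold shorter members.

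Because each row is a whole interval with introns, members shared reads. Of the 39, 22 touched another member's row and 11 lay wholly inside other members' rows, as the map of intervals shows. HOXA3 held HOXA4, HOXA5 and HOXA6; HOXB3 held HOXB4 and HOXB5; HOXB7 held HOXB8 and HOXB9. HOXC6 held HOXC8 and HOXC9, HOXC4 held HOXC5, and HOXD3 held HOXD4. HOXB6 lay to 99.1% inside HOXB3, and HOXC4 shared 35.5% of its length with HOXC6. A row lying inside another never exceeded it in any library in 25 of 25 pairs on the same strand and 27 of 27 on opposite strands (pairs with a mean of at least 20 counts), so reads appear to have been counted in every row they touched, without regard to strand. Antisense RNAs are therefore mixed in: HOXB-AS1, which covers 50% of HOXB2, had 1.91 times the counts of HOXB2, and HOXD8 lay inside HOXD-AS2, which had 1.93 times its counts. For 28 members some touching row had at least as many counts as the member, and those values cannot be assigned to the member alone. HOXB13, HOXD12 and HOXD13 touched no other row. HOXD10 and HOXD11 shared 965 bp, which is 8.7% of HOXD10 and 17.4% of HOXD11. Changes in a long host row and in the members inside it are therefore not separate observations.

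Total counts were 41431776 to 53695626 per library, of which the HOX rows took 0.0245% to 0.0366%. MEPCE itself had levels in CPM (counts scaled to a common library size by TMM) of 39.9 and 40.1 with siNC and 5.35 and 4.84 with siMePCE in Flp-In, and of 29.3 and 29.3 with siNC and 3.65 and 2.30 with siMePCE in AsiSI, which matched the labels. The share of mitochondrial rows moved with the siRNA, at 5.23% to 5.91% with siNC and 8.24% to 10.55% with siMePCE. With mitochondrial, 7SK, 7SL and ribosomal RNA rows removed, the counts of HOX members called below were the same. Of 11 osteoblast and mesenchymal markers, VIM and SPARC were the most abundant. RUNX2, the osteoblast lineage regulator, was at 30.1 to 44.6 CPM, while SP7, BGLAP and COL1A2 stayed under 1 CPM and IBSP did not pass the filter. The summed level of that list was 1370 to 1410 CPM with siNC and 903 to 1050 with siMePCE in Flp-In, and 1740 to 1970 with siNC and 1430 to 1520 with siMePCE in AsiSI. The 6 epithelial markers summed to 261 to 266, 220 to 263, 138 to 145 and 157 to 180 CPM in the same order, with KRT19 at 0 to 0.0405 CPM. The 6 haematopoietic markers summed to 3.98 to 7.57 CPM over all libraries, with HBA1 at 0 in each. These levels moved with line and siRNA, and their part in the HOX results was not tested. As cells were measured in bulk, fewer cells of a kind and less RNA per cell cannot be told apart.

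All clusters were transcribed, and the members differed widely in level. Compared per kb of row, HOXB9 had a mean of 3.33 CPM per kb over the 8 libraries, HOXB2 2.71 and HOXC8 2.51. On the same scale HOXC10 had 1.65, HOXA11 1.54 and the HOXD leaders HOXD8 and HOXD9 had 1.24 and 0.653. The order depends on the group: HOXB2 was above HOXB9 in Flp-In siNC, at 4.67 CPM per kb, and HOXB9, at 4.6, above HOXB2 in AsiSI siNC. HOXD10, at 1.36, was above HOXD9, at 0.516, in Flp-In siNC, and was at 0.0197 in AsiSI siNC. At the other end, HOXB1 had 0 counts in all 8 libraries, where 3 counts, the limit that a count of 0 allows, would be 0.0559 to 0.0724 CPM. HOXC12 had 2 counts in 1 library, HOXD12 0 to 4 counts and HOXD4 0 to 12. These 4 did not pass the count filter, and 35 members were tested. HOXD13 (2 to 12 counts), the digit gene at the end of its cluster, had at least 10 counts in both libraries of no group. HOXC5 (3 to 24 counts) reached that in Flp-In siNC and HOXD11 (2 to 136 counts) in the Flp-In groups, so these passed the filter through the groups in which they were high.

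**Figure D2:**
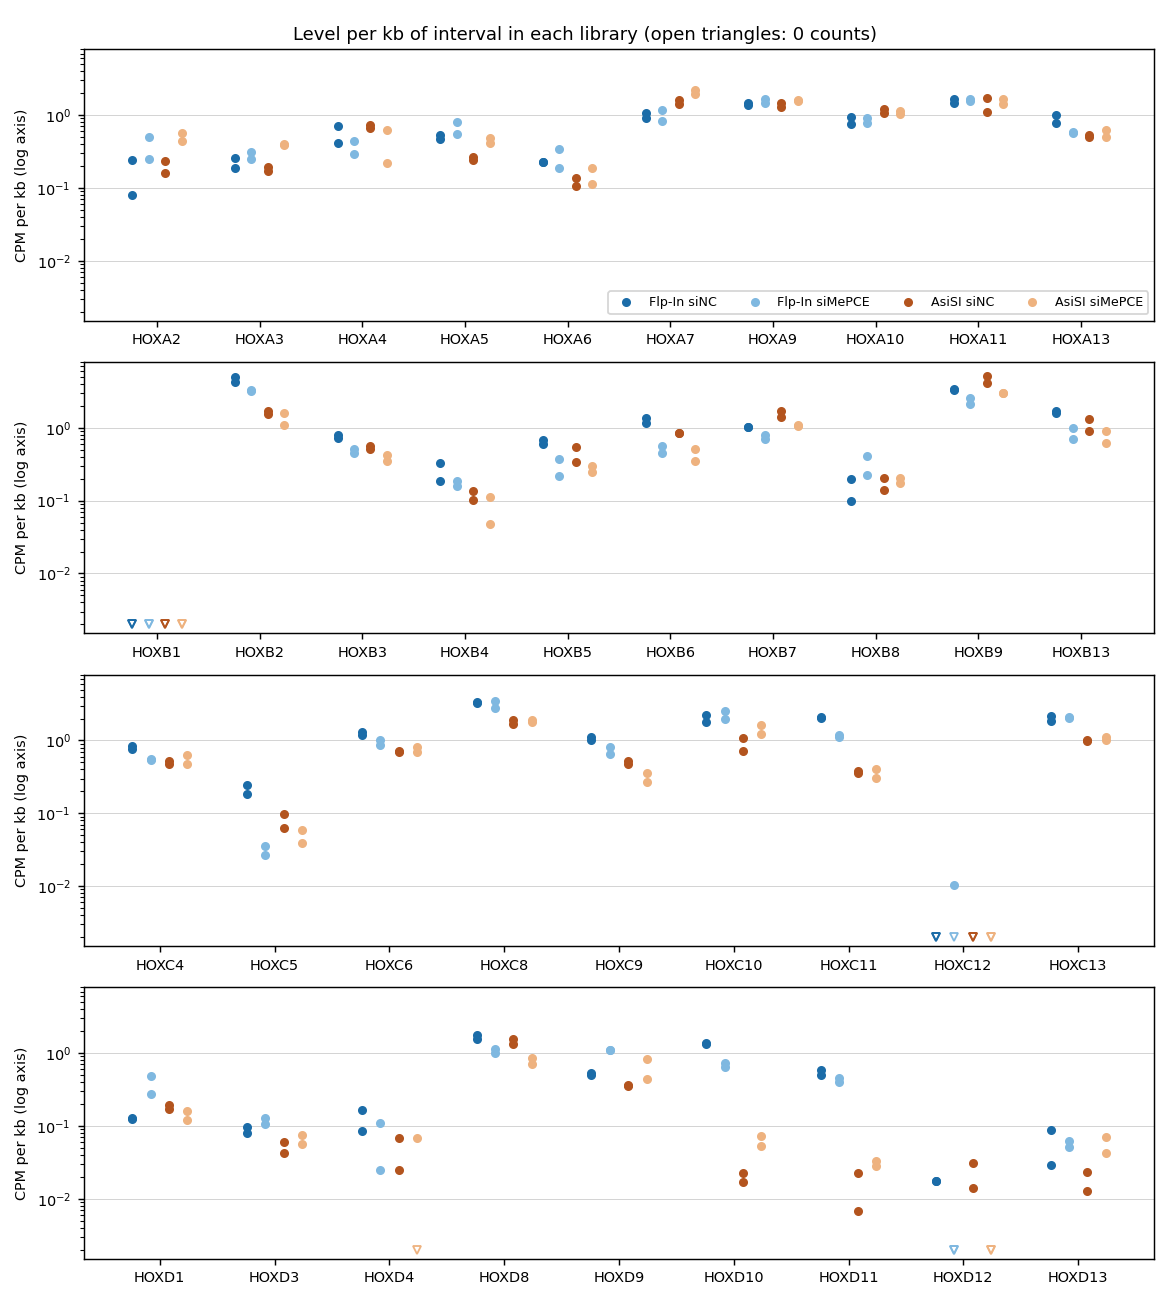
CPM per kb of deposited row for 38 of the 39 HOX members in each of the 8 libraries (log axis; 1 point per library, colours give the group, open triangles mark 0 counts). HOXB9 and HOXB2 are at the top of those drawn; HOXD10 and HOXD11 fall by over 10-fold from the Flp-In to the AsiSI groups, and HOXB1 has no count.

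In Flp-In cells siMePCE lowered more HOX members than it raised: 15 of 35 were called lower and 4 higher, where 22.7% of all 43321 tested rows were called lower and 18.1% higher (40.8% in either direction). Calls are at a Benjamini-Hochberg adjusted p under 0.05 from edgeR's quasi-likelihood test over all rows. HOXC5, which is among the 15, had passed the filter through its high group, and 14 were among the 30 members with at least 10 counts in every library. HOXD10 is among both the 15 and the 14. Its siNC values were those that drew attention to it, so its call supports nothing. The median HOX log2 fold change was -0.32, against 0.03 for all rows and -0.10 for protein-coding rows. The falls lay in HOXB (7 of 9 tested members), HOXC (5 of 8), HOXD (2 of 7) and HOXA (1 of 11). Several of the 15 share reads, so they are fewer separate observations than members. HOXB5 lies wholly and HOXB6 almost wholly inside HOXB3, and HOXB9 inside HOXB7. HOXC5 lies inside HOXC4 and HOXC9 inside HOXC6, and HOXC4 and HOXC6 overlap. Without Flp-In siMePCE replicate 2 the number lower was 7, and without Flp-In siMePCE replicate 1 or Flp-In siNC replicate 2 the number higher was 2.

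In AsiSI cells siMePCE raised 5 members and lowered 6 of 35, where 16.8% of all rows were called higher and 21.3% lower (38.1% in either direction). HOXD10 is among the 5 higher, as the only HOXD member, and its call supports nothing here either. The median HOX log2 fold change was 0.10, against 0.04 for all rows and -0.14 for protein-coding rows. In HOXA 3 members were higher, in HOXB 4 were lower, and in HOXC and HOXD 1 moved each way. Without AsiSI siNC replicate 1 or AsiSI siMePCE replicate 2 the number higher was 3. Averaged over both lines, 6 members were higher and 11 lower (all rows: 25.2% and 27.2%, together 52.5%), with 4 higher in HOXA and 7 lower in HOXB; without Flp-In siMePCE replicate 1 the number higher was 3. HOXC5, which had passed the filter through its high group, is among the 11. Of the 30 members with at least 10 counts in every library, 5 were higher and 10 lower in the average. Called lower in both lines were 6 members (HOXB3, HOXB6, HOXB7, HOXB9, HOXC9 and HOXD8). The share of all rows called lower in both lines was not computed, so this count has no background and is a description.

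**Figure D3:**
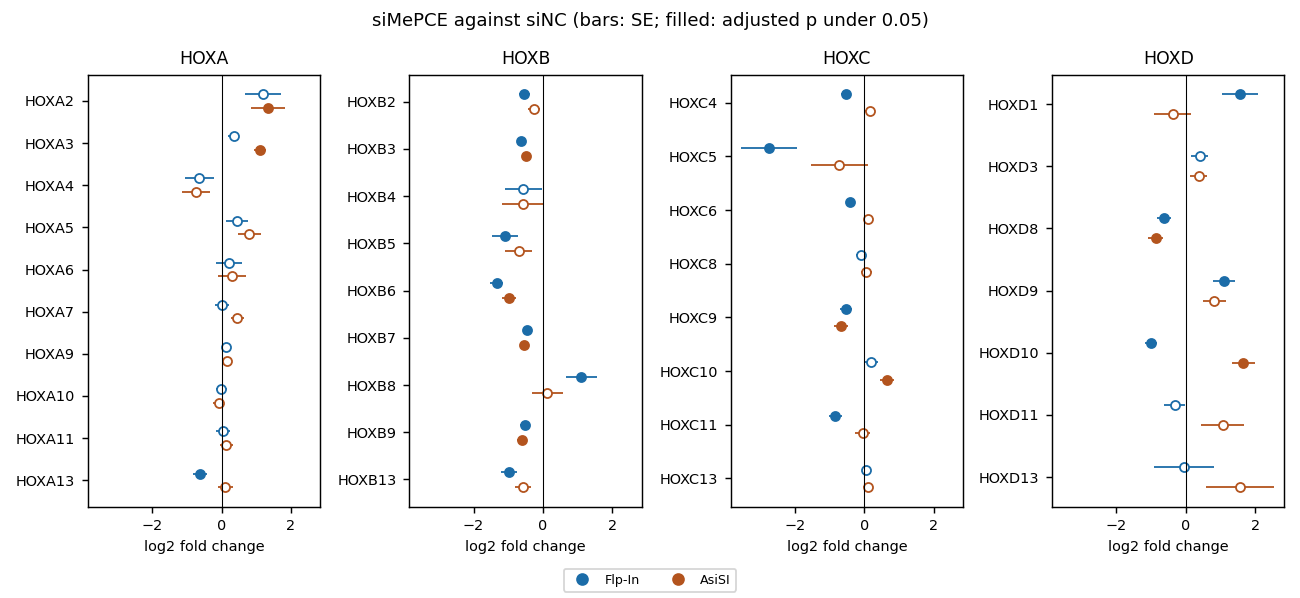
Log2 fold change of siMePCE against siNC for 34 of the 35 tested HOX members in Flp-In (blue) and AsiSI (orange); points are edgeR estimates, bars their standard error, and filled points have an adjusted p under 0.05. Among those drawn, all called HOXB members but HOXB8 lie to the left of 0 and all called HOXA members but HOXA13 to the right, while HOXD10, whose values chose it, lies left in Flp-In and right in AsiSI.

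In the HOXA cluster, HOXA3 and HOXA2 were called higher with siMePCE in AsiSI and not in Flp-In, and HOXA13 was called lower in Flp-In and not in AsiSI. HOXA3, which acts in pharyngeal arch, thymus and parathyroid development, had 11.8 and 8.71 CPM with siNC and 14.7 and 11.5 with siMePCE in Flp-In cells, then 9.15 and 7.91 with siNC and 17.8 and 18.9 with siMePCE in AsiSI cells. The siRNA groups overlapped in Flp-In and stood apart in AsiSI, where HOXA3 was 2.16-fold higher (log2 1.11, SE 0.162, adjusted p = 1.33e-05). In Flp-In its log2 fold change was 0.35 (adjusted p = 0.0905), which passed when siMePCE replicate 2 (0.51, 0.0483) or siNC replicate 1 (0.57, 0.0344) of that line was left out. With the counts of HOXA4, HOXA5 and HOXA6 taken off the HOXA3 row, an alternative chosen after seeing the data, the log2 fold change was 1.46 in AsiSI (adjusted p = 1.06e-06) and 0.49 in Flp-In (adjusted p = 0.0304). Touching rows with more counts were not taken off, among them 1 with 1.14 times the counts of HOXA3. HOXA-AS3 and HOXA-AS2 of the opposite strand had 0.729 and 0.549 times its counts. In AsiSI they rose by log2 0.53 (adjusted p = 0.0202) and 1.04 (adjusted p = 0.000178). The rise therefore cannot be assigned to HOXA3 alone. The HOXA2 row lies wholly inside 2 other rows with 19.8 and 17.6 times its counts, so its values cannot be assigned to it alone. In Flp-In its log2 fold change was 1.19 (adjusted p = 0.0691), and a different effect in the lines was not shown (log2 difference 0.16, adjusted p = 0.944). It passed in the average (log2 1.27, adjusted p = 0.00488), where the value was 0.96 without Flp-In siMePCE replicate 1. HOXA2, at 0.186 to 1.31 CPM, was called higher in AsiSI (log2 1.34, adjusted p = 0.0339). The HOXA2 call did not hold without AsiSI siNC replicate 1 (log2 1.60, adjusted p = 0.0629), AsiSI siNC replicate 2 (1.11, 0.178) or AsiSI siMePCE replicate 2 (1.16, 0.144), nor with DESeq2 (1.38, 0.0542).

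HOXA5, a gene of lung development, had Flp-In levels of 1.40 and 1.22 CPM on siNC and 2.13 and 1.43 on siMePCE, next to AsiSI levels of 0.708 and 0.646 on siNC and 1.08 and 1.28 on siMePCE. It passed in the average alone (log2 0.62, SE 0.233, adjusted p = 0.0303), and 6 of the 8 fits with 1 library left out gave adjusted p of 0.0563 to 0.168; these left out either siNC library of AsiSI or Flp-In, AsiSI siMePCE replicate 2, or Flp-In siMePCE replicate 1. With every row of at least 1 count kept the adjusted p was 0.0627, and with DESeq2 0.0513. Its row lies wholly inside HOXA3.

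At the tail end HOXA13, a gene of distal limb and urogenital development, had 5.11 and 6.63 CPM with siNC and 3.93 and 3.70 with siMePCE in Flp-In, against 3.29 and 3.54 with siNC and 4.10 and 3.29 with siMePCE in AsiSI. It was 1.54-fold lower in Flp-In (log2 -0.62, SE 0.203, adjusted p = 0.0185). That call did not hold without Flp-In siNC replicate 2 (log2 -0.43, adjusted p = 0.236), Flp-In siMePCE replicate 1 (-0.68, 0.0524) or Flp-In siMePCE replicate 2 (-0.58, 0.101). HOXA11, a forearm and uterus gene, had 5.94 and 6.87 CPM with siNC and 6.81 and 6.33 with siMePCE in Flp-In cells, then 4.44 and 7.02 with siNC and 5.79 and 6.89 with siMePCE in AsiSI cells, and its groups overlapped in both lines. HOXA7 had Flp-In levels of 3.92 and 4.45 CPM on siNC and 4.91 and 3.52 on siMePCE, next to AsiSI levels of 6.08 and 6.84 on siNC and 8.29 and 9.41 on siMePCE, with log2 fold changes of 0.01 and 0.45 on siMePCE (adjusted p = 0.973 and 0.0575). HOXA4, HOXA6, HOXA9 and HOXA10 passed in no comparison; HOXA9, the HOXA row with the highest mean CPM, ran from 16.7 to 21.3 CPM.

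Of the 6 members lower in both lines, 4 were in HOXB. HOXB6 lies to 99.1% inside HOXB3, and HOXB9 wholly inside HOXB7, so the 4 are not separate observations. HOXB6 had 12.5 and 10.8 CPM with siNC and 5.19 and 4.12 with siMePCE in Flp-In cells, then 7.81 and 7.95 with siNC and 4.78 and 3.22 with siMePCE in AsiSI cells. The siMePCE libraries lay below the siNC libraries in each line without overlap. HOXB6 was 2.51-fold lower in Flp-In (log2 -1.33, SE 0.189, adjusted p = 9.30e-06) and, in AsiSI, 1.97-fold lower (log2 -0.98, SE 0.193, adjusted p = 0.000374), and both calls held under every alternative run.

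HOXB3, the long row that covers HOXB6 almost wholly, had Flp-In levels of 44.1 and 40.7 CPM on siNC and 29 and 25.3 on siMePCE, next to AsiSI levels of 29.1 and 31.8 on siNC and 23.9 and 19.9 on siMePCE. It was 1.56-fold lower in Flp-In (log2 -0.64, SE 0.117, adjusted p = 0.000152) and, in AsiSI, 1.39-fold lower (log2 -0.48, SE 0.119, adjusted p = 0.00308). Without AsiSI siMePCE replicate 2 the AsiSI call was lost (log2 -0.36, adjusted p = 0.056). The antisense row HOXB-AS3, which covers 98.6% of HOXB3 and had 0.866 times its counts, was lower by nearly the same amount: log2 -0.66 in Flp-In and -0.48 in AsiSI. As these rows share reads, that likeness is no separate observation.

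HOXB7 had 27.3 and 27.2 CPM with siNC and 21.1 and 18.4 with siMePCE in Flp-In cells, then 37.3 and 44.8 with siNC and 27.6 and 28.7 with siMePCE in AsiSI cells. HOXB9, a gene of thoracic patterning and the highest HOXB row per kb, lies inside HOXB7 and had 17.2 and 17.6, 13.2 and 11.0, 21.4 and 26.5, and 15.8 and 15.8 CPM in the same order of groups. For both rows siMePCE libraries were lower without overlap in each line. HOXB7 was 1.38-fold lower in Flp-In (log2 -0.46, SE 0.118, adjusted p = 0.00335) and, in AsiSI, 1.46-fold lower (log2 -0.54, SE 0.116, adjusted p = 0.000765). HOXB9 was 1.43-fold and 1.51-fold lower (log2 -0.52 and -0.60, adjusted p = 0.00452 and 0.00127). Without Flp-In siMePCE replicate 2 the Flp-In calls of HOXB7 (log2 -0.37, adjusted p = 0.0633) and HOXB9 (log2 -0.40, adjusted p = 0.0842) were lost. With HOXB8 and HOXB9 taken off the HOXB7 row, what was left still fell, by log2 -0.54 in Flp-In (adjusted p = 0.0059) and -0.50 in AsiSI (adjusted p = 0.00759).

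HOXB2, which patterns the hindbrain, had Flp-In levels of 18.2 and 21.2 CPM on siNC and 13.8 and 13.3 on siMePCE, next to AsiSI levels of 7.15 and 6.43 on siNC and 6.69 and 4.57 on siMePCE. It was 1.45-fold lower in Flp-In (log2 -0.54, SE 0.159, adjusted p = 0.00979), where groups did not overlap, and in AsiSI the groups overlapped (log2 -0.27, adjusted p = 0.237; without AsiSI siMePCE replicate 1 it passed at -0.58, 0.0208). The Flp-In call was lost without Flp-In siMePCE replicate 2 (log2 -0.51, adjusted p = 0.07) or Flp-In siNC replicate 2 (-0.44, 0.122). HOXB-AS1, the antisense row over HOXB2, was lower in both lines (log2 -0.55 and -0.38, adjusted p = 0.00231 and 0.0329).

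HOXB13, a prostate and tail-end gene that lies apart from the rest of its cluster and touches no other row, had 6.78 and 6.46 CPM with siNC and 3.97 and 2.79 with siMePCE in Flp-In cells, then 3.65 and 5.27 with siNC and 3.56 and 2.43 with siMePCE in AsiSI cells. The Flp-In groups stood well apart and the AsiSI groups only just. HOXB13 was 1.96-fold lower in Flp-In (log2 -0.97, SE 0.232, adjusted p = 0.0021), and in AsiSI its log2 fold change was -0.57 (SE 0.237, adjusted p = 0.0622). That AsiSI value passed without AsiSI siNC replicate 1 (log2 -0.82, adjusted p = 0.024) or AsiSI siMePCE replicate 1 (-0.89, 0.018). HOXB5 had Flp-In levels of 1.52 and 1.72 CPM on siNC and 0.953 and 0.558 on siMePCE, next to AsiSI levels of 0.854 and 1.37 on siNC and 0.743 and 0.631 on siMePCE, and was 2.14-fold lower in Flp-In (log2 -1.10, SE 0.370, adjusted p = 0.022). The HOXB5 call did not hold without Flp-In siMePCE replicate 2 (log2 -0.77, adjusted p = 0.202) or Flp-In siNC replicate 1 (-1.20, 0.0522) or 2 (-1.01, 0.105), and its averaged call (log2 -0.90, adjusted p = 0.00751) not without AsiSI siNC replicate 2 (-0.71, 0.0542).

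HOXB8, at 0.383 to 1.62 CPM, pointed the other way and was called higher in Flp-In (log2 1.11, adjusted p = 0.0497). The call was lost with DESeq2 (adjusted p = 0.0865) and without Flp-In siMePCE replicate 1 (log2 0.57, adjusted p = 0.454), Flp-In siNC replicate 2 (0.68, 0.346), AsiSI siNC replicate 1 (1.10, 0.0539) or AsiSI siNC replicate 2 (1.10, 0.0515). HOXB4, at 0.135 to 0.932 CPM, passed in no comparison.

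**Figure D4:**
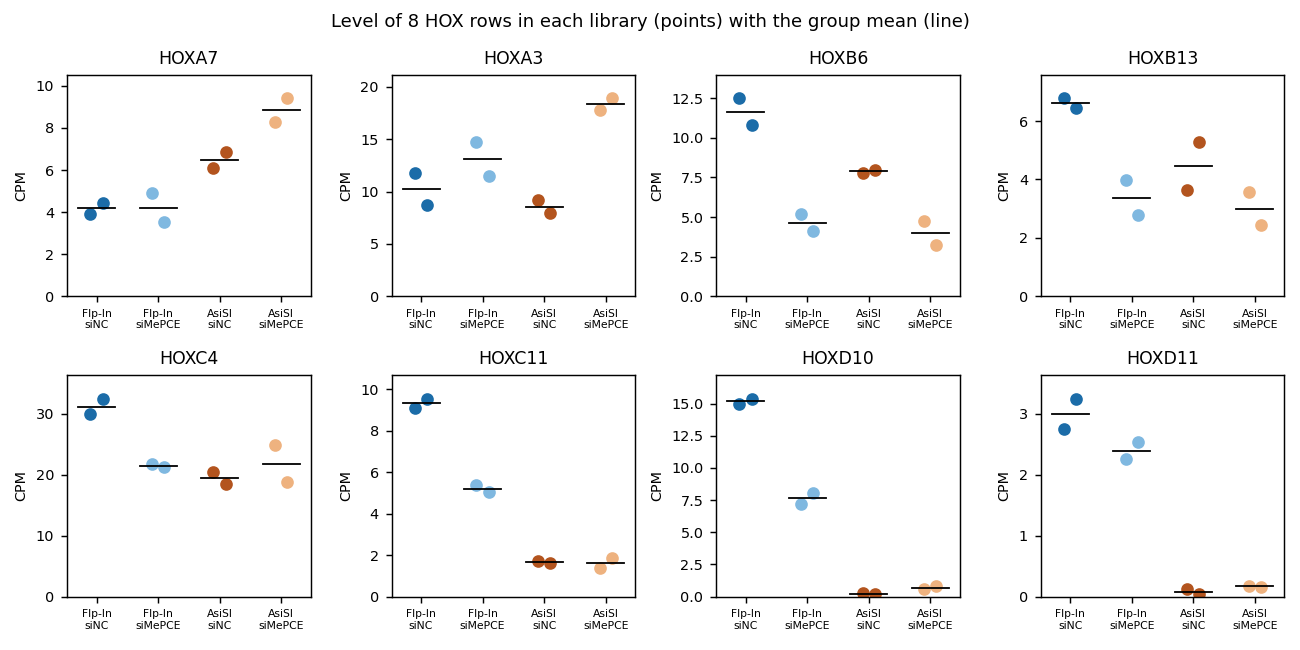
CPM of 8 HOX rows in each library (points) with the mean of the 2 libraries of a group (line), on linear axes from 0. HOXB6 falls with siMePCE in both lines; HOXA7 is higher in AsiSI than in Flp-In; HOXC11, HOXD10 and HOXD11 are far lower in AsiSI than in Flp-In; HOXD10 falls with siMePCE in Flp-In and rises from a low level in AsiSI.

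Of the 5 HOXC members lower in Flp-In, HOXC9 was also called in AsiSI. HOXC4 had 29.9 and 32.5 CPM with siNC and 21.7 and 21.2 with siMePCE in Flp-In, but 20.4 and 18.5 with siNC and 24.8 and 18.8 with siMePCE in AsiSI. The groups stood apart in Flp-In and overlapped in AsiSI. HOXC4 was 1.46-fold lower in Flp-In (log2 -0.54, SE 0.129, adjusted p = 0.00199), a call that held under every alternative, and in AsiSI its log2 fold change was 0.16 (SE 0.130, adjusted p = 0.359).

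The overlapping HOXC6 row, the most abundant HOX row by its mean CPM over the 8 libraries though not in AsiSI siNC, where HOXB7 and HOXB3 were above it, had 48.0 and 52.2 CPM with siNC and 40.6 and 35.3 with siMePCE in Flp-In cells, then 28.6 and 27.9 with siNC and 32.9 and 27.8 with siMePCE in AsiSI cells. It was 1.32-fold lower in Flp-In (log2 -0.40, SE 0.111, adjusted p = 0.0061), and its AsiSI groups overlapped (log2 0.10, adjusted p = 0.51). The Flp-In call was lost without Flp-In siMePCE replicate 2 (log2 -0.31, adjusted p = 0.105) or Flp-In siNC replicate 2 (-0.35, 0.0704). HOXC5, inside HOXC4, had 0.559 and 0.431 CPM with siNC and 0.0811 and 0.062 with siMePCE in Flp-In (24, 18, 4 and 3 counts). It had passed the filter through Flp-In siNC alone, so its log2 fold change of -2.74 (SE 0.809) is given as a description and its call supports nothing. In AsiSI HOXC5 was at 0.0901 to 0.228 CPM in all 4 libraries.

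HOXC11 had Flp-In levels of 9.11 and 9.55 CPM on siNC and 5.37 and 5.03 on siMePCE, next to AsiSI levels of 1.73 and 1.64 on siNC and 1.40 and 1.85 on siMePCE. It was 1.79-fold lower in Flp-In (log2 -0.84, SE 0.187, adjusted p = 0.00103), a call kept under every alternative. In AsiSI, where it began at a far lower level, its groups overlapped (log2 -0.05, SE 0.224, adjusted p = 0.88). HOTAIR, a noncoding RNA of the opposite strand, has a row over 42.7% of HOXC11 with 0.93 times its counts. HOXC11 also lies wholly inside another row of the opposite strand, which had 2.15 times its counts. HOTAIR showed 7.97 and 8.90 CPM with siNC and 4.32 and 3.93 with siMePCE in Flp-In, and 1.82 to 2.48 CPM over the AsiSI libraries. It was lower in Flp-In (log2 -1.03, adjusted p = 0.000233) and not called in AsiSI (log2 -0.22, adjusted p = 0.47). As HOTAIR and HOXC11 share reads, their changes are not separate observations.

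HOXC9, known for setting motor neuron columns of the thoracic spinal cord, was the HOXC member lower in both lines. It had 8.46 and 9.38 CPM with siNC and 6.85 and 5.46 with siMePCE in Flp-In cells, then 4.00 and 4.45 with siNC and 2.30 and 3.02 with siMePCE in AsiSI cells. Its log2 fold change was -0.53 in Flp-In (SE 0.185, adjusted p = 0.0254) and -0.67 in AsiSI (SE 0.202, adjusted p = 0.0121). The Flp-In call was lost without Flp-In siMePCE replicate 2 (log2 -0.38, adjusted p = 0.229) or Flp-In siNC replicate 1 (-0.62, 0.0579) or 2 (-0.47, 0.157), and the AsiSI call without AsiSI siNC replicate 2 (-0.59, 0.077) or AsiSI siMePCE replicate 1 (-0.50, 0.108). In the average it was lower by 1.52-fold (log2 -0.60, adjusted p = 0.000937).

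HOXC10, a lumbar and hindlimb gene, went up in AsiSI. It had Flp-In levels of 11.5 and 9.38 CPM on siNC and 13.3 and 10.4 on siMePCE, next to AsiSI levels of 3.77 and 5.67 on siNC and 6.35 and 8.49 on siMePCE. The AsiSI rise was 1.57-fold (log2 0.65, SE 0.204, adjusted p = 0.0156) and was lost without AsiSI siNC replicate 1 (log2 0.38, adjusted p = 0.243) or AsiSI siMePCE replicate 2 (0.42, 0.20). Its averaged call (log2 0.42, adjusted p = 0.0168) was lost without those libraries (0.28, 0.123 and 0.30, 0.103) and without Flp-In siMePCE replicate 1 (0.31, 0.111) or Flp-In siNC replicate 2 (0.34, 0.0872).

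HOXC8 and HOXC13 did not pass on siMePCE in either line. HOXC8, the highest HOXC row per kb, had 12.2 and 12.8 CPM with siNC and 13.0 and 10.5 with siMePCE in Flp-In cells, then 6.33 and 7.13 with siNC and 6.89 and 7.12 with siMePCE in AsiSI cells. HOXC13, a regulator of hair and nail keratins at the tail end of its cluster, had 14.3 and 16.7, 16.4 and 15.9, 7.67 and 7.83, and 8.67 and 7.93 CPM in the same order. Their log2 fold changes lay between -0.09 and 0.10 with SE of 0.137 to 0.158, and both were lower in every AsiSI library than in every Flp-In library. Their siRNA groups overlapped, except that the AsiSI siMePCE libraries of HOXC13 lay just above its siNC libraries.

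In HOXD the neighbours moved in different directions. HOXD8 had Flp-In levels of 5.32 and 4.62 CPM on siNC and 3.04 and 3.39 on siMePCE, next to AsiSI levels of 4.67 and 3.97 on siNC and 2.12 and 2.61 on siMePCE. It was 1.54-fold lower in Flp-In (log2 -0.63, SE 0.207, adjusted p = 0.0196) and, in AsiSI, 1.82-fold lower (log2 -0.87, SE 0.213, adjusted p = 0.0027). The Flp-In call was lost without Flp-In siMePCE replicate 1 (log2 -0.56, adjusted p = 0.108) or Flp-In siNC replicate 1 (-0.54, 0.159).

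Its neighbour HOXD9, which also lies inside HOXD-AS2, had 1.19 and 1.10 CPM with siNC and 2.47 and 2.42 with siMePCE in Flp-In cells, then 0.792 and 0.799 with siNC and 0.969 and 1.85 with siMePCE in AsiSI cells. All siMePCE values were above the siNC values of their line. HOXD9 was 2.13-fold higher in Flp-In (log2 1.09, SE 0.318, adjusted p = 0.00881) and had a log2 fold change of 0.82 in AsiSI (SE 0.334, adjusted p = 0.0582), which passed without AsiSI siMePCE replicate 1 (1.20, 0.0085). Without Flp-In siNC replicate 2 the Flp-In call was lost (log2 1.03, adjusted p = 0.0639). HAGLR, an antisense row over 33.7% of HOXD1, had 8.2 times the counts of HOXD1. HOXD1, at 0.27 to 1.07 CPM, was called higher in Flp-In (log2 1.57, SE 0.523, adjusted p = 0.0203), a value that cannot be assigned to it alone. That call was lost without Flp-In siMePCE replicate 1 (log2 1.11, adjusted p = 0.224) or Flp-In siNC replicate 1 (1.53, 0.101) or 2 (1.58, 0.0864). HOXD3 had Flp-In levels of 2.94 and 3.57 CPM on siNC and 4.68 and 3.89 on siMePCE, next to AsiSI levels of 1.54 and 2.19 on siNC and 2.07 and 2.77 on siMePCE, with log2 fold changes of 0.40 and 0.37 on siMePCE that did not pass (adjusted p = 0.189 and 0.262).

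HOXD10, a gene of limb and lumbosacral patterning, was lower with siMePCE in Flp-In and higher in AsiSI. In Flp-In it had 15.0 and 15.4 CPM with siNC (644 and 643 counts) and 7.20 and 8.07 with siMePCE (355 and 390 counts). In AsiSI it had 0.25 and 0.19 CPM with siNC (12 and 10 counts) and 0.586 and 0.811 with siMePCE (26 and 36 counts). The values of the 4 groups did not overlap. With siMePCE it was 1.99-fold lower in Flp-In (log2 -0.99, SE 0.170) and 3.16-fold higher in AsiSI (log2 1.66, SE 0.339), where it stayed 10.9-fold below that of Flp-In siMePCE. The siNC libraries in these comparisons are those in which HOXD10 was noticed, so the changes are a description with no test. The difference between the effects in the lines was log2 2.66 (SE 0.377) and was not tested either.

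HOXD11, a gene of forearm patterning that overlaps the start of the HOXD10 row, had 2.75 and 3.25 CPM with siNC and 2.25 and 2.54 with siMePCE in Flp-In, and 0.125 and 0.038 with siNC (6 and 2 counts) and 0.18 and 0.158 with siMePCE (8 and 7 counts) in AsiSI. Its siMePCE values were lower without overlap in Flp-In and higher without overlap in AsiSI, but neither change passed (log2 -0.32, SE 0.294, adjusted p = 0.399, and log2 1.06, SE 0.614, adjusted p = 0.189). HOXD13 passed in no comparison.

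The test of the difference between the lines asks whether siMePCE acted differently in AsiSI and Flp-In. Of the 34 tested members other than HOXD10, HOXC4 alone passed, with a log2 difference of 0.70 in the direction of AsiSI (SE 0.184, adjusted p = 0.0321), and none passed in the other direction (1 at an unadjusted p under 0.05, and 0 with DESeq2); of all rows 2.51% and 1.66% were called, 4.17% in either direction. HOXC4 did not pass in 6 of the 8 fits with 1 library left out, with log2 differences of 0.77 and 0.64 (adjusted p = 0.0821 and 0.151) without Flp-In siNC replicate 1 or 2. Without Flp-In siMePCE replicate 1 or 2 they were 0.72 and 0.68 (adjusted p = 0.0994 and 0.102), without AsiSI siNC replicate 2 0.64 (adjusted p = 0.0912), and without AsiSI siMePCE replicate 1 0.48 (adjusted p = 0.151). HOXC6 (log2 0.50, adjusted p = 0.0789) and HOXA3 (log2 0.76, adjusted p = 0.068) did not pass, and their calls turned on the setting. Both passed with DESeq2 (adjusted p = 0.0381 and 0.0421). HOXA3 also passed with every row of at least 1 count kept (adjusted p = 0.0209) and without Flp-In siNC replicate 2 (log2 0.96, adjusted p = 0.0356), and HOXC6 without AsiSI siMePCE replicate 2 (log2 0.62, adjusted p = 0.042). With nested members taken off their host rows, HOXC6 (log2 0.78, adjusted p = 0.0235) and HOXA3 (log2 0.97, adjusted p = 0.0284) passed as well. HOXC6 and HOXC4 share 13893 bp, and without nested members both rows had similar counts. These were 1171 and 1259 in Flp-In siNC replicate 1 and 784 and 829 in AsiSI siMePCE replicate 2. The calls of HOXC6 and HOXC4 are therefore not separate observations. For the members called in Flp-In and not in AsiSI other than HOXC4, such as HOXC11 (log2 difference 0.79, adjusted p = 0.142), HOXB13 (0.39, 0.593) and HOXA13 (0.73, 0.176), a different effect in the lines was not shown. The median of the differences was 0.16 for HOX members and -0.02 for all rows.

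Most HOXC and HOXD members had lower levels in AsiSI than in Flp-In. Under siNC, which is a description because the set was chosen with this contrast in view, 26 of the 35 members had a lower fitted value in AsiSI, as had 49.4% of all rows. For 22 of them both AsiSI libraries were below both Flp-In libraries, and 6 members were higher without overlap. Over all rows 32.8% were lower and 31.6% higher without overlap, 64.3% in either direction. The median log2 difference was -0.57 for HOX members and 0.01 for all rows. All 8 HOXC members were lower, with log2 differences from -0.68 (HOXC4) to -2.47 (HOXC11), as were 6 of 7 in HOXD, 6 of 9 in HOXB and 6 of 11 in HOXA. HOXD10 stood lowest at log2 -6.10 (SE 0.255, 68.6-fold), then HOXD11 at -5.19 (SE 0.438, 36.4-fold) and HOXC11 at -2.47 (SE 0.205, 5.54-fold). HOXA7 (0.63), HOXB7 (0.59) and HOXB9 (0.46) were higher in AsiSI on the log2 scale. Without AsiSI siNC replicate 1 or 2 the HOXD11 value was -6.21 or -4.53, since it rests on 6 and 2 counts.

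Under siMePCE, 10 of the 34 tested members other than HOXD10 were lower in AsiSI and 5 higher, where 15.9% of all rows were called lower and 15.6% higher (31.5% in either direction). Of the 10, 6 were in HOXC, and the others were HOXB2, HOXD1, HOXD3 and HOXD11, the last of which had passed the filter through Flp-In. Among the 5 higher ones were HOXA3, HOXA7, HOXB7 and HOXB9. Without Flp-In siMePCE replicate 1 the number lower was 6; without Flp-In siMePCE replicate 2 or AsiSI siMePCE replicate 2 the number higher was 2 or 3. Both siRNA conditions come from the same lines, so the likeness of these values to those under siNC is no second observation of the lines.

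**Figure D5:**
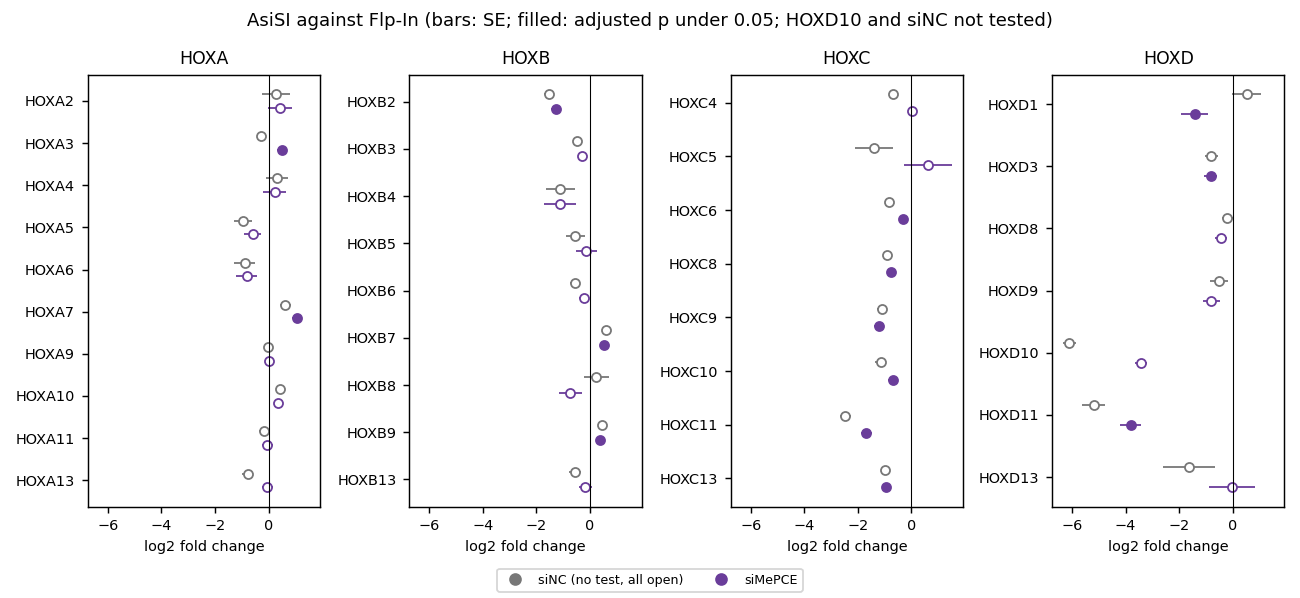
Log2 fold change of AsiSI against Flp-In for 34 of the 35 tested HOX members under siNC (grey, description without test) and siMePCE (purple; filled points have an edgeR adjusted p under 0.05); bars are standard errors. HOXC lies left of 0 under siNC throughout, HOXD10 and HOXD11 lie below -3 in both conditions, and HOXA7, HOXB7 and HOXB9 lie right of 0.

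HOXD11 was 14.0-fold lower in AsiSI under siMePCE (log2 -3.81, SE 0.400), next to HOXD10 at log2 -3.44 (SE 0.221). Both are descriptions: HOXD10 was chosen for this pattern, and HOXD11, which shares reads with it, passed the filter through the Flp-In groups alone. HOXC11 was 3.20-fold lower (log2 -1.68, SE 0.209, adjusted p = 2.3e-06), HOXB2 2.41-fold (log2 -1.27, SE 0.169, adjusted p = 5.63e-06), HOXC9 2.32-fold (log2 -1.21, adjusted p = 6.98e-05) and HOXC13 1.94-fold (log2 -0.96, adjusted p = 1.94e-05). HOXC8 was 1.68-fold lower (log2 -0.75, adjusted p = 0.00075). The calls of HOXC11, HOXB2, HOXC9, HOXC13 and HOXC8 held under all alternatives. On the other side HOXA7 was 2.10-fold higher (log2 1.07, SE 0.189, adjusted p = 0.00015) and HOXB7 1.43-fold higher (log2 0.51, SE 0.118, adjusted p = 0.00196), both under all alternatives. HOXA-AS3 of the opposite strand covers 52.4% of HOXA7 and had 1.53 times its counts. That row was also higher in AsiSI under siMePCE (log2 0.54, adjusted p = 0.0214). As the 2 rows share reads, the HOXA7 value cannot be assigned to HOXA7 alone.

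Calls of other members between the lines rested on single libraries. HOXC10 (log2 -0.68, adjusted p = 0.0108) was lost without Flp-In siMePCE replicate 1 (log2 -0.49, adjusted p = 0.169) or AsiSI siMePCE replicate 1 (-0.49, 0.117). HOXD3 (log2 -0.82, adjusted p = 0.012) was lost without the same libraries (-0.68, 0.12 and -0.63, 0.105). HOXA3 (log2 0.49, adjusted p = 0.0233) was lost without Flp-In siMePCE replicate 2 (0.31, 0.263) or AsiSI siMePCE replicate 2 (0.45, 0.101). HOXB9 (log2 0.38, adjusted p = 0.0384) was lost without either of those (0.25, 0.318 and 0.38, 0.104) or AsiSI siMePCE replicate 1 (0.38, 0.0974). HOXC6 (log2 -0.32, adjusted p = 0.0323) was lost without AsiSI siMePCE replicate 2 (-0.20, 0.298), Flp-In siMePCE replicate 1 (-0.21, 0.323) or Flp-In siNC replicate 1 (-0.29, 0.0777) or 2 (-0.29, 0.0792), in a fit of the 4 libraries compared (-0.30, 0.062), and turned to 0.05 (adjusted p = 0.833) with HOXC8 and HOXC9 taken off its row. HOXD1 (log2 -1.42, adjusted p = 0.0399) was lost without Flp-In siMePCE replicate 1 (-0.97, 0.361), AsiSI siMePCE replicate 1 (-1.23, 0.155) or 2 (-1.64, 0.0747), or Flp-In siNC replicate 1 (-1.38, 0.0512) or 2 (-1.38, 0.0511), with DESeq2 (-1.41, 0.0854) and in a fit of the 4 libraries compared (-1.40, 0.0533).

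Noncoding RNAs of the clusters share reads with the members they overlap. Of 17 kept, 2 were called higher and 5 lower in Flp-In, and 2 higher and 4 lower in AsiSI, with medians of -0.12 and -0.20 on the log2 scale. The called shares of 41.2% and 35.3% were near those of all rows (40.8% and 38.1%). HOXB-AS1, HOXB-AS3 and HOXB-AS4 were lower in both lines; HOXB-AS4 fell by 1.05 and 0.61 on the log2 scale (adjusted p = 0.000661 and 0.0247). HOXA-AS2 was higher in AsiSI (log2 1.04, adjusted p = 0.000178) and not called in Flp-In (log2 0.44, adjusted p = 0.0786), a difference that did not pass (log2 0.60, adjusted p = 0.25). HAGLR, which covers part of HOXD1, was higher in Flp-In (log2 0.59, adjusted p = 0.0245) and not called in AsiSI (log2 -0.46, adjusted p = 0.0755). Its log2 difference of -1.05 passed (adjusted p = 0.0395), the only 1 of the 17 (5.88%, against 4.17% of all rows). HAGLR was singled out after its values were seen. EVX1 and EVX2, the homeobox genes that flank HOXA and HOXD, did not pass the count filter. Of 12 neighbours outside the clusters, 4 were higher and 4 lower in Flp-In and 4 higher and 3 lower in AsiSI (66.7% and 58.3% called, against 40.8% and 38.1% of all rows). LNPK, beyond the HOXD cluster, fell by 1.10 and 1.09 (adjusted p = 2.77e-08 and 3.31e-08), SMUG1 beyond HOXC by 0.70 and 0.58 and HIBADH beyond HOXA by 0.63 and 0.48, while TAX1BP1 beyond HOXA rose by 0.45 and 0.42, all on the log2 scale and all called in both lines.

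Among the proteins that work with HOX factors, the 11 TALE cofactors had 1 member higher and 4 lower in Flp-In and 2 higher and 5 lower in AsiSI (median log2 -0.17 and -0.09). The called shares were 45.5% and 63.6%, against 40.8% and 38.1% of all rows. PBX2 was lower by log2 -1.06 and -0.64 and MEIS3 by -1.97 and -1.5, both called in both lines. MEIS2 was called higher in both (log2 0.50 and 0.77, adjusted p = 0.00157 and 2.05e-05). PBX3, called lower in Flp-In (log2 -0.75) and not in AsiSI (log2 -0.09), differed between the lines (log2 0.67, adjusted p = 0.00821). It was singled out after its values were seen, as the only 1 of the 11 differences called (9.09%, against 4.17% of all rows).

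Of 20 Trithorax and MLL genes, 4 were higher and 9 lower in Flp-In, and 4 higher and 8 lower in AsiSI (median log2 -0.13 and -0.09). Lower calls made up 45% and 40% of the list, against 22.7% and 21.3% of all rows, and higher calls 20% in each line, against 18.1% and 16.8%. KMT2D, a histone H3K4 methyltransferase, was lower by log2 -0.61 and -0.63, and MEN1, the menin subunit of MLL complexes, by -1.02 and -1.28. WDR5, a core subunit of these complexes, was lower by log2 -0.53 and -1.10 (adjusted p = 0.00017 and 2.46e-08). Its fall was larger in AsiSI (log2 difference -0.56, adjusted p = 0.0235). Of the 20 differences between the lines, 1 was called in each direction (10%, against 4.17% of all rows). KDM6A, which removes the Polycomb mark H3K27me3, was higher by log2 0.57 and 0.59. All 4 were called in both lines.

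Polycomb genes had more falls than rises: 18 of 30 were lower and 4 higher in Flp-In, and 17 lower and 4 higher in AsiSI, with medians of -0.32 and -0.42 on the log2 scale, against 0.03 and 0.04 for all rows and -0.10 and -0.14 for protein-coding rows. The shares called lower were 60% and 56.7%, against 22.7% and 21.3% of all rows, and those called higher 13.3% in each line, against 18.1% and 16.8%. Of the 30 differences between the lines, 1 was called in each direction (6.67%, against 4.17% of all rows). BMI1 of the PRC1 complex went from 177 and 172 to 89.3 and 81.5 CPM in Flp-In and from 173 and 156 to 91.1 and 82.8 in AsiSI (log2 -1.03 and -0.92, adjusted p = 1.17e-08 and 5.9e-08). PHF19, an accessory subunit of PRC2, was lower by log2 -1 and -1.25, and CBX6 by -0.68 and -0.97. RYBP, a subunit of variant PRC1, was higher by log2 0.66 and 0.64. HOX members rose, fell or did not pass beside these changes; no link between the lists was tested.

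Of 12 genes for CTCF, cohesin and related insulation factors, 3 were higher and 3 lower in Flp-In, and 5 higher and 3 lower in AsiSI (50% and 66.7% called, against 40.8% and 38.1% of all rows). SMC1A fell by 0.90 and 1.23, PDS5A by 0.44 and 0.46 and MAZ by 1.35 and 1.43 on the log2 scale, and ZNF143 rose by 0.62 and 0.66, all called in both lines. CTCF itself was not called in either line (log2 0.22 and -0.15, adjusted p = 0.062 and 0.23).

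Retinoic acid genes and the CDX family, which act upstream of HOX genes in embryos, had 14 of 18 rows kept, with 2 higher and 6 lower in Flp-In and 2 higher and 5 lower in AsiSI. Lower calls made up 42.9% and 35.7% of the kept rows, against 22.7% and 21.3% of all rows, and higher calls 14.3% in each line, against 18.1% and 16.8%. ALDH1A2, an enzyme that makes retinoic acid, went from 6.25 and 6.75 to 34.3 and 32.4 CPM in Flp-In and from 9.81 and 9.77 to 45.3 and 33.2 in AsiSI. Its libraries did not overlap in either line (log2 2.36 and 2.00, adjusted p = 1.04e-10 and 5.96e-10). RARB, a retinoic acid receptor whose gene is itself induced by retinoic acid, was higher by log2 0.73 and 1.58, and the rise was larger in AsiSI (log2 difference 0.85, adjusted p = 0.00639). RARA fell by 0.42 and 1.23 and RARG by 1.70 and 0.95 on the log2 scale, called in both lines. The fall of RARA was larger in AsiSI (log2 difference -0.80, adjusted p = 0.00197), and the difference of RARG did not pass (log2 0.76, adjusted p = 0.06). Of the 14 differences between the lines, 1 was called in each direction (14.3%, against 4.17% of all rows). Other homeobox genes of the same class outside the clusters had 19 of 26 rows kept, with 4 higher and 5 lower in Flp-In and 2 higher and 4 lower in AsiSI. Their called shares of 47.4% and 31.6% lay on either side of those of all rows (40.8% and 38.1%). EMX1 (log2 -1.53 and -1.23) and TLX2 (-2.04 and -1.18) were called lower in both lines. DLX4 was called lower in Flp-In (log2 -1.51) and not in AsiSI (log2 -0.19), with a log2 difference of 1.32 (adjusted p = 0.0241). It was the only 1 of the 19 differences called (5.26%, against 4.17% of all rows).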

How the data were processed

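RNA was made into libraries with a directional kit after ribosomal RNA removal, per the labels' protocols. Tools named without versions in the submitters' processing notes are STAR, featureCounts, Trim Galore, SAMtools and FastQC, and the build is hg19; counting settings are not given in the sources used here. The authors deposited raw read counts for 80311 rows, whose listed length equals the span from start to end in all 80311. Gene types came from GENCODE 29.

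From the counts, rows were kept with filterByExpr of edgeR 4.0.16 (R 4.3.3), which left 43321, scaled with TMM, and a quasi-likelihood model with 4 group means was fitted to all 8 libraries. Rows with a Benjamini-Hochberg adjusted p under 0.05 over all kept rows were called. Contrasts were siMePCE against siNC per line, their average, their difference, and AsiSI against Flp-In. Standard errors (SE) are the log2 fold change divided by the root of its F statistic. HOXD10 is described without a test, though its siMePCE calls are in the counts; between lines no member was tested under siNC. The common biological coefficient of variation was 0.121. Replicates differed beyond sampling noise (chi-square per degree of freedom 4.52 to 11.3). The test was tried on simulated data.

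The members and gene lists were chosen with earlier results of these data known. Values in every library are given for HOXD10, for members called in a tested contrast with a mean of at least 1 CPM, and for the 2 highest per kb in each cluster (24 shown). From each other list, up to 4 members called in the average with the smallest adjusted p are named. HOTAIR, HAGLR, CTCF and PBX3 were added after their values were seen. Of the genes these rules name, 1 HOX member and 2 genes of other lists are not reported here. Alternatives were other count filters, DESeq2 1.42.0 and its size factors, removal of abundant RNAs, a replicate block, the 4 libraries compared, each library left out, and, added after seeing the data, host rows less their nested HOX members. Same-numbered libraries did not all deviate together, so the numbers were not taken as pairs.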

Additional observations from a re-analysis of the deposited data

Results flagged for a closer look

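HOXC4 passed the test of a different siMePCE effect in AsiSI and Flp-In, and HOXD10, untested, moved in opposite directions. HOXC4 had a log2 difference (AsiSI minus Flp-In) of 0.70, with an edgeR adjusted p of 0.0321: both Flp-In siMePCE libraries (21.7 and 21.2 CPM) were below both Flp-In siNC libraries (29.9 and 32.5 CPM), while the AsiSI groups overlapped. The call was lost in 6 of the 8 fits with 1 library left out (adjusted p = 0.0821 to 0.151). HOXD10 had a log2 difference of 2.66, moved down in both Flp-In siMePCE libraries and up in both AsiSI siMePCE libraries, and was not tested because it was chosen for its pattern between the lines. In either difference, the line and 4-OHT cannot be told apart.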

How the results depend on the processing

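Counts of called HOX members kept within 1.5 times their values under other filters, scalings, DESeq2, the 4 libraries compared and host rows less nested members, except for the difference between the lines. There, 1 member was called higher in the main analysis, 2 with every row of at least 1 count kept, 3 with DESeq2, 3 with nested members taken off their hosts, and 3 with the replicate block. The replicate block moved no other count past 1.5 times and ended no call of a named member, but it gained 9 calls in 7 of them: HOXA3 (adjusted p = 0.0233) and HOXC6 (0.0362) for the difference, and others of HOXA3, HOXA7, HOXB3, HOXB13, HOXD3 and HOXD9 at adjusted p of 0.0286 to 0.0487. Leaving out AsiSI siMePCE replicate 1 gained 7 calls of named members, and each other alternative 4 or fewer. The numbers are not shown to pair the libraries: correlations of their deviations from the group means ran from 0.0538 to 0.228.

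With 1 library left out, members called in Flp-In ran from 2 to 6 higher and 7 to 15 lower, in AsiSI from 3 to 6 higher and 5 to 7 lower, and in the average from 3 to 7 higher and 9 to 12 lower. The difference ran from 0 to 2 higher, and AsiSI against Flp-In under siMePCE from 2 to 5 higher and 6 to 12 lower. Under siNC 26 to 27 members had lower values in AsiSI. Of 56 tested results of named members, 33 never lost their call. Losses were 55 of 448 values with 1 library left out and 3 of 432 under other settings, besides 1 reversal: HOXC6 between the lines under siMePCE at 0.05 with its nested members taken off. HOXA11 between the lines under siNC, not tested, ran from -0.51 to 0.13 with 1 library left out (0.13 without AsiSI siNC replicate 1). Where a library was left out, fewer samples set the spread; other causes were not tested. With 2 libraries a group, members under about 1 CPM have SE of up to 1.31 on the log2 scale.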
